A study of Mus musculus with 8 samples.

Results

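Collagens are the structural proteins of the extracellular matrix, and each collagen is a triple helix of 3 chains, which can be copies from 1 gene or come from different genes. The genes described here are the mouse collagen chains, taken by name as every gene symbol that begins with Col and a digit and holds the letter a before a second number. The name pattern matched 44 of 22552 genes, and 1 of them, Col4a3bp, codes for a ceramide transfer protein and no collagen, so it was left out. The other 43 genes comprised 11 fibrillar chains, 6 basement membrane chains of type IV, 6 chains of the beaded filament collagen VI and 20 others.

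Translating RNA had been purified from UCP1-positive cells with UCP1-TRAP, a mouse transgene that puts a GFP-tagged ribosomal protein into cells that use the Ucp1 promoter, so that ribosomes and their mRNA can be pulled down with an antibody against GFP. UCP1 is the heat-producing uncoupling protein of brown adipocytes and of the beige adipocytes that appear in white depots in the cold. All groups were 6-week-old females of the strain labelled C57B/6 UCP1-TRAP that carried the transgene, and none was a control without it or without cold: the mice were bred at 30 °C, weaned to room temperature at 3 weeks and kept at 4 °C from 4 weeks of age for 2 weeks. There were 3 libraries of inguinal white adipose tissue (inguinal WAT), 2 of perigonadal white adipose tissue (perigonadal WAT) and 3 of brown adipose tissue (BAT). Whether libraries of a depot came from separate mice is not stated, and p-values rest on the spread of the libraries, which may be technical. RNA from before the pull-down and RNA that stayed unbound are not analysed here, and the pull-down can carry over RNA of other cells.

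As background, fibrillar collagens I, III and V form the banded fibres that wrap fat lobules and vessels, with type V chains built into type I fibres. Type IV collagen is a sheet-forming collagen, and with laminins and nidogen it makes the basement membrane that encloses each adipocyte and each vessel. Type VI collagen forms beaded filaments between that basement membrane and the fibres, and in adipose tissue the fibrillar chains are made mostly by fibroblasts and adipocyte progenitors, while adipocytes themselves deposit basement membrane.

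All levels are FPKM (fragments per kilobase of transcript, scaled to the mapped fragments of the library), summed over the transcripts of a gene. Estimated fragments on genes numbered from 252993 (inguinal replicate 3) to 1122708 (perigonadal replicate 1), and FPKM totals from 75925 to 206549 in the same libraries, so a level can differ because the whole library does. The collagen chains held 784 to 1360 fragments in inguinal WAT, 3937 and 1090 in perigonadal WAT and 372 to 489 in BAT. As a check for adipocyte RNA, adipocyte markers (8 of 8 above 0 in every library, among them Ucp1 and Adipoq) summed to 3375 to 6730 FPKM in inguinal WAT, 10040 and 6679 in perigonadal WAT and 4811 to 5445 in BAT. These sums overlapped between inguinal WAT and BAT and do not check the depot labels. Of 43 chains, 25 were above 0 in all inguinal libraries, 24 in both perigonadal libraries and 18 in all BAT libraries. No fragment was seen in any BAT library for 20 chains, in any perigonadal library for 11 and in any inguinal library for 3 (Col2a1, Col19a1 and Col22a1, which were at 0 in all 8).

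Summed over all 43 chains, the level was 72.6, 58.2 and 42.3 FPKM in inguinal replicates 1 to 3, 184.3 and 55.7 in replicates 1 and 2 of perigonadal WAT, and 23.4, 21.7 and 26.9 in those of BAT. Every white library was above every BAT library, and perigonadal replicate 1 stood 3.31-fold above perigonadal replicate 2. As a share of each library's own FPKM total, collagen chains took 0.0414 to 0.0557 percent in inguinal WAT, 0.0892 and 0.0376 percent in perigonadal WAT and 0.0167 to 0.0220 percent in BAT. On this share, too, every white library lay above every BAT library.

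**Figure D1:**
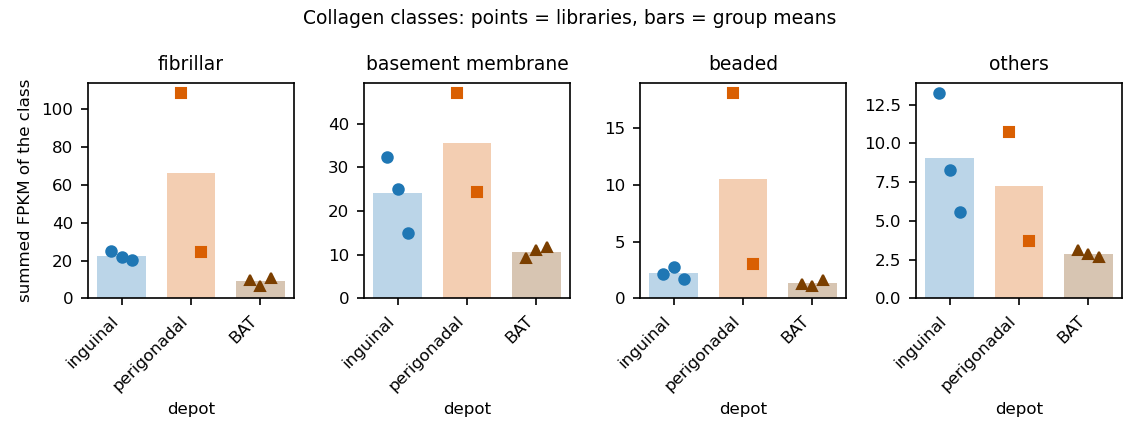
Summed FPKM of the 4 collagen classes (y axis, 1 panel per class) by depot (x axis); points are libraries and bars are group means. Perigonadal replicate 1 reached 108 FPKM in the fibrillar class and 18.0 in the beaded class, against 24.6 and 2.99 in perigonadal replicate 2, and no BAT library exceeded 10.8 fibrillar FPKM.

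By class, fibrillar chains averaged 22.3 ± 2.34 FPKM in inguinal WAT (SD, n = 3), 66.5 ± 59.3 in perigonadal WAT (n = 2) and 9.12 ± 2.18 in BAT (n = 3). Basement membrane chains averaged 24.1 ± 8.80, 35.7 ± 16.0 and 10.7 ± 1.37 FPKM in the same order. Beaded chains averaged 2.21 ± 0.555, 10.5 ± 10.6 and 1.33 ± 0.231 FPKM. The other chains averaged 9.05 ± 3.88, 7.23 ± 5.0 and 2.86 ± 0.234 FPKM. Inguinal WAT was thus 2.45-fold above BAT for fibrillar, 2.25-fold for basement membrane, 1.66-fold for beaded and 3.16-fold for the other chains. Perigonadal WAT was 7.30-fold, 3.33-fold, 7.91-fold and 2.53-fold above BAT, and dividing each library by a median-ratio size factor brought these to 3.99, 1.97, 4.23 and 1.44. Without perigonadal replicate 1 the unscaled ratios were 2.70, 2.28, 2.25 and 1.29. Within libraries, fibrillar chains made up 34.2 to 47.6 percent of collagen FPKM in inguinal WAT, 58.9 and 44.2 percent in perigonadal WAT and 30.6 to 42.0 percent in BAT. Basement membrane chains made up 35.2 to 44.6, 25.5 and 43.8, and 39.2 to 51.2 percent. Only perigonadal replicate 1 had most of its collagen FPKM in fibrillar chains.

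Of the 43 chains, 17 had at least 1 FPKM in at least 2 libraries and a transcript of at least 300 nt and were tested; the mean reached 1 FPKM or more for 13 of the 17 in inguinal WAT, 14 in perigonadal WAT and 7 in BAT, so most entered through the white depots. Differences are log2 fold changes on log2(FPKM + 1), which understates changes of low genes, and "called" means an adjusted p under 0.05 over the 8958 genes tested. Against BAT, 3 of 17 chains were called higher in inguinal WAT and 0 lower, beside 2.2 percent of all genes called in either direction and 1.73 percent called higher. Perigonadal WAT had 8 of 17 chains called higher than BAT and 0 lower, beside 5.18 percent of all genes in either direction and 4.91 percent higher. Between the white depots 0 of 17 chains were called, beside 0.703 percent of all genes, and 6 had an unadjusted p under 0.05. The comparisons share libraries. The median difference of the 17 chains was 0.81 for inguinal WAT against BAT (0.03 over all genes), 1.16 for perigonadal WAT against BAT (0.52 over all genes) and -0.46 for inguinal against perigonadal WAT (-0.50 over all genes).

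The median over all genes in perigonadal WAT against BAT was itself above 0, and median-ratio size factors took it from 0.52 to 0.02. On that scale the median of the chains against BAT was 0.77 in perigonadal WAT and 0.81 in inguinal WAT. All genes called in perigonadal WAT against BAT split into 440 higher and 24 lower as deposited and 234 higher and 313 lower after scaling. The split was 155 and 42 against 267 and 146 for inguinal WAT against BAT, and 27 and 36 against 28 and 0 for inguinal against perigonadal WAT. After scaling, 5 chains were called for inguinal WAT against BAT and 2 for perigonadal WAT against BAT.

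**Figure D2:**
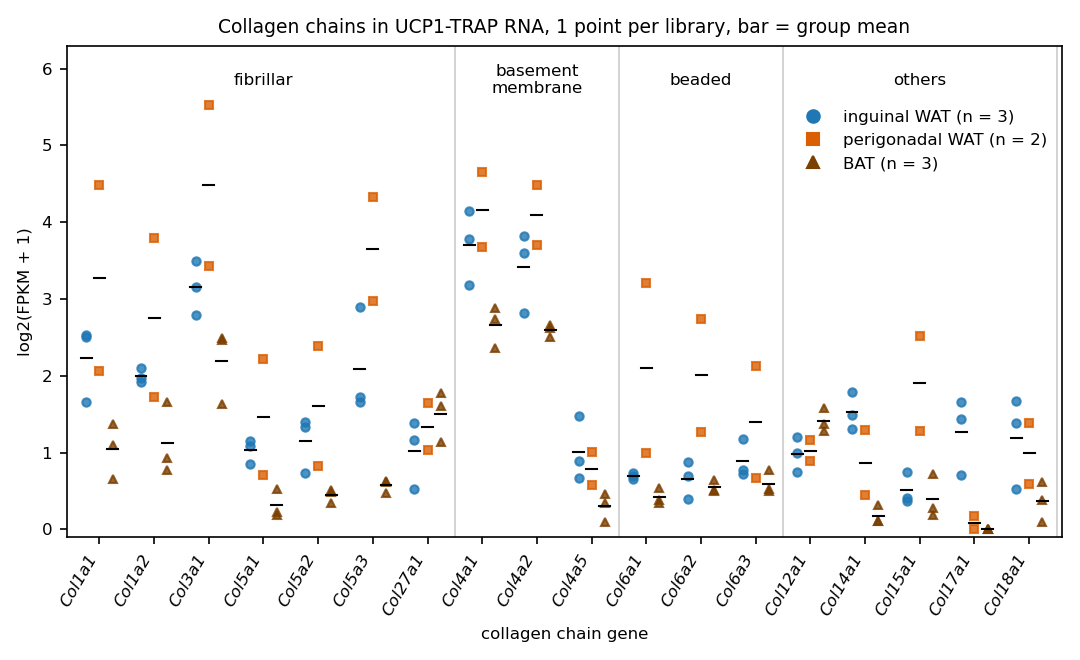
Level of each tested chain and of Col6a1 (x axis, by class) as log2(FPKM + 1) (y axis); points are libraries (circles inguinal WAT, squares perigonadal WAT, triangles BAT) and bars are group means. Col3a1, Col4a1 and Col4a2 lay highest on average, and the squares of Col1a1 (21.3 and 3.16 FPKM) and Col6a1 (8.22 and 0.987 FPKM) lay far apart.

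Groups of libraries that did not overlap were common among the chains. All inguinal libraries lay above all BAT libraries for 11 of 17 tested chains, beside 6.81 percent of all genes, and below them for 1, beside 5.37 percent. Perigonadal libraries lay above all BAT libraries for 12 of 17, but here 48.3 percent of all genes did the same, and below them for 1, beside 3.72 percent. Inguinal libraries lay above both perigonadal libraries for 2 chains, Col14a1 and Col17a1, beside 1.44 percent of all genes, and below them for 3, Col5a3, Col6a2 and Col15a1, beside 27.5 percent, so that this last share of the chains was no higher than that of all genes.

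Promoter sequence is shown for 4 chains that represent the different patterns described next: Col1a2 and Col3a1 of the main fibres, Col5a3 as the chain with the largest difference between perigonadal WAT and BAT, and Col17a1 as a chain seen almost only in inguinal WAT. Each is the 250 bases before the RefSeq gene start in GRCm38.p6, 5′ to 3′ on the strand of the gene, at chr6:4505368-4505617 (plus strand), chr1:45311288-45311537 (plus), chr9:20815068-20815317 (minus) and chr19:47692043-47692292 (minus), with the CCAAT box in capitals, read as CCAAT or on the opposite strand as ATTGG.
Col1a2: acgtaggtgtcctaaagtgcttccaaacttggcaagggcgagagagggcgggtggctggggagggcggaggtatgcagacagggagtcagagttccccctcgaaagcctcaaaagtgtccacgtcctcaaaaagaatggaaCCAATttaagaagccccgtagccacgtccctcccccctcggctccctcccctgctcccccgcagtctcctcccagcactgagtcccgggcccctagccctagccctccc
Col3a1: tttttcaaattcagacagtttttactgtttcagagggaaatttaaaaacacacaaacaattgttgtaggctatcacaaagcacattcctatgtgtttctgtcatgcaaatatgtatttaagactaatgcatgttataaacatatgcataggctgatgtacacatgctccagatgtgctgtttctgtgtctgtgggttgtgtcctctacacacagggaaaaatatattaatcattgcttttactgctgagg
Col5a3: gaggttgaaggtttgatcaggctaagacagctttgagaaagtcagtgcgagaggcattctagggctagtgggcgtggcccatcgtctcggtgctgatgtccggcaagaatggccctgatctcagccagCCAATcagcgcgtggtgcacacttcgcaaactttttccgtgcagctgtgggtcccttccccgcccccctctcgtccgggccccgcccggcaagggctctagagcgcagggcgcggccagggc
Col17a1: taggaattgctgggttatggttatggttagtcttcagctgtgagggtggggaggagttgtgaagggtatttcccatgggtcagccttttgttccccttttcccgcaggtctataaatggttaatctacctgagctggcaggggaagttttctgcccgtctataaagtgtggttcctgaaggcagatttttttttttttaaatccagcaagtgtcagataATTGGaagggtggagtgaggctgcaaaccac

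The GC content of these windows was 62.0 percent for Col1a2, 35.2 for Col3a1, 62.8 for Col5a3 and 46.0 for Col17a1. A CCAAT box lay 109 to 105 bases before the start of Col1a2 and 122 to 118 bases before that of Col5a3, in the forward direction in both, and in Col17a1 it lay 31 to 27 bases before the start on the opposite strand. The letters CCAAT were not in the Col3a1 window, which held 1 TATAAA at 117 to 112 bases. The Col17a1 window also held TATAAA, at 140 to 135 and at 91 to 86 bases. Of the 43 chains, 35 had a RefSeq window, 38 windows in all, and on either strand 13 held CCAAT, 5 TATAAA and 22 GGGCGG, the core of a GC box. Over 32851 windows of this length the shares were 33.8, 12.4 and 32.7 percent. Of the printed windows, that of Col1a2 held GGGCGG at 205 to 200 and 188 to 183 bases. That of Col5a3 held it on the opposite strand at 63 to 58 and 41 to 36 bases. A match is a description of letters only.

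The chains of collagen I, the main protein of tensile fibres, were Col1a1 (mm9, chromosome 11, 94797584 to 94813170) and Col1a2 (chromosome 6, 4455697 to 4491543), each given over the full span of its transcripts. Col1a1 stood at 4.70, 2.17 and 4.76 FPKM in inguinal WAT, 21.3 and 3.16 in perigonadal WAT, and 1.13, 0.579 and 1.60 in BAT. Both white depots lay wholly above BAT, and perigonadal replicate 1 alone exceeded the inguinal libraries. The difference from BAT was 1.19 ± 0.43 (SE) in inguinal WAT (adjusted p = 0.182) and 2.23 ± 0.48 in perigonadal WAT (adjusted p = 0.00107). Col1a2 stood at 3.30, 2.93 and 2.77 FPKM in inguinal WAT, 12.9 and 2.29 in perigonadal WAT, and 0.906, 0.708 and 2.15 in BAT. Again the white libraries did not overlap BAT, by a narrow margin between perigonadal replicate 2 and BAT replicate 3. Its difference from BAT was 0.88 ± 0.41 in inguinal WAT (adjusted p = 0.499) and 1.64 ± 0.46 in perigonadal WAT (adjusted p = 0.0196). The ratio of Col1a1 to Col1a2, which join in one trimer as 2 copies and 1 copy, ran from 0.739 to 1.72 with a median of 1.32 over the 8 libraries, and inguinal WAT held both ends of that range.

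Col3a1 (chromosome 1, 45368383 to 45406551) is the single chain of collagen III of soft, vessel-rich tissue. It had the highest level of the fibrillar chains except in inguinal replicate 2 (Col5a3 higher) and BAT replicate 2 (Col27a1 higher). It stood at 10.3, 5.95 and 7.94 FPKM in inguinal WAT, 45.2 and 9.76 in perigonadal WAT, and 4.64, 2.10 and 4.52 in BAT. No white library fell to the BAT levels. The difference from BAT was 0.95 ± 0.43 in inguinal WAT (adjusted p = 0.453) and 2.28 ± 0.48 in perigonadal WAT (adjusted p = 0.000883). The ratio of Col3a1 to Col1a1 was 2.18, 2.75 and 1.67 in inguinal WAT, 2.12 and 3.08 in perigonadal WAT, and 4.09, 3.64 and 2.82 in BAT. All BAT libraries lay above all inguinal libraries on this ratio, by a narrow margin (2.82 against 2.75). Col1a1 had only 12, 7 and 20 fragments in the BAT libraries. Without perigonadal replicate 1 the perigonadal differences of Col1a1, Col1a2 and Col3a1 were 1.01, 0.60 and 1.23 with adjusted p of 0.821, 0.987 and 0.687, and none was called.

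Of the type V chains, which regulate the width of collagen I fibres, Col5a3 had the largest difference of the tested chains between perigonadal WAT and BAT on log2(FPKM + 1). It also led for inguinal WAT against BAT on that scale, but not with a pseudocount of 0.1, where Col17a1 stood at 3.84, Col14a1 at 3.13 and Col5a3 at 2.49. Col5a3 (chromosome 9, 20574494 to 20619478) stood at 2.15, 6.43 and 2.30 FPKM in inguinal WAT, 19.0 and 6.88 in perigonadal WAT, and 0.542, 0.393 and 0.533 in BAT. The 3 depots were fully separated, with BAT lowest and perigonadal WAT highest, on 210 fragments in inguinal WAT, 625 in perigonadal WAT and 26 in BAT. Its mean was 7.42-fold higher in inguinal WAT and 26.5-fold higher in perigonadal WAT than in BAT. Without inguinal replicate 2 the first ratio was 4.55, and without perigonadal replicate 1 the second was 14.0. The difference from BAT was 1.52 ± 0.40 in inguinal WAT (adjusted p = 0.0202) and 3.08 ± 0.45 in perigonadal WAT (adjusted p = 7.7e-07). The perigonadal difference was called under all 15 alternatives tried, with adjusted p from 1.76e-09 to 0.0434, and was 2.40 without perigonadal replicate 1 (adjusted p = 0.00194). Inguinal minus perigonadal WAT gave -1.56 ± 0.45 (adjusted p = 0.0870), which was not called.

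The other type V chains were lower and less separated. Col5a1 stood at 1.22, 1.12 and 0.807 FPKM in inguinal WAT, 3.65 and 0.638 in perigonadal WAT, and 0.142, 0.169 and 0.445 in BAT. Col5a2 stood at 1.52, 1.63 and 0.668 FPKM in inguinal WAT, 4.23 and 0.774 in perigonadal WAT, and 0.434, 0.273 and 0.397 in BAT. For both genes all white libraries lay above BAT, but neither was called: the inguinal differences were 0.71 and 0.71 (adjusted p = 0.652 and 0.676) and the perigonadal differences 1.15 and 1.16 (adjusted p = 0.101 and 0.103). The ratio of Col5a3 to Col5a1 ranged from 1.20 in BAT replicate 3 to 10.8 in perigonadal replicate 2, a 9.01-fold span, whereas Col5a1 to Col5a2 spanned 3.68-fold.

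Col27a1, a fibrillar collagen chain best known from cartilage, ran against the rest of its class. It stood at 1.23, 1.61 and 0.439 FPKM in inguinal WAT, 2.12 and 1.05 in perigonadal WAT, and 2.05, 2.44 and 1.20 in BAT. All 3 depots overlapped. The differences from BAT were -0.49 ± 0.38 in inguinal WAT (adjusted p = 0.913) and -0.17 ± 0.43 in perigonadal WAT (adjusted p = 0.803). Of the fibrillar chains that were not tested, Col11a1 had 14 fragments in inguinal WAT (0.407, 0.0631 and 0.387 FPKM) and 0 in both other depots, Col11a2 had 3, 2 and 0 fragments in inguinal WAT, perigonadal WAT and BAT, and Col24a1 had 1 fragment in all. Col2a1, the chain of cartilage collagen, had none, which allows up to 0.109 FPKM in BAT (3 fragments over the group, counting error only).

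**Figure D3:**
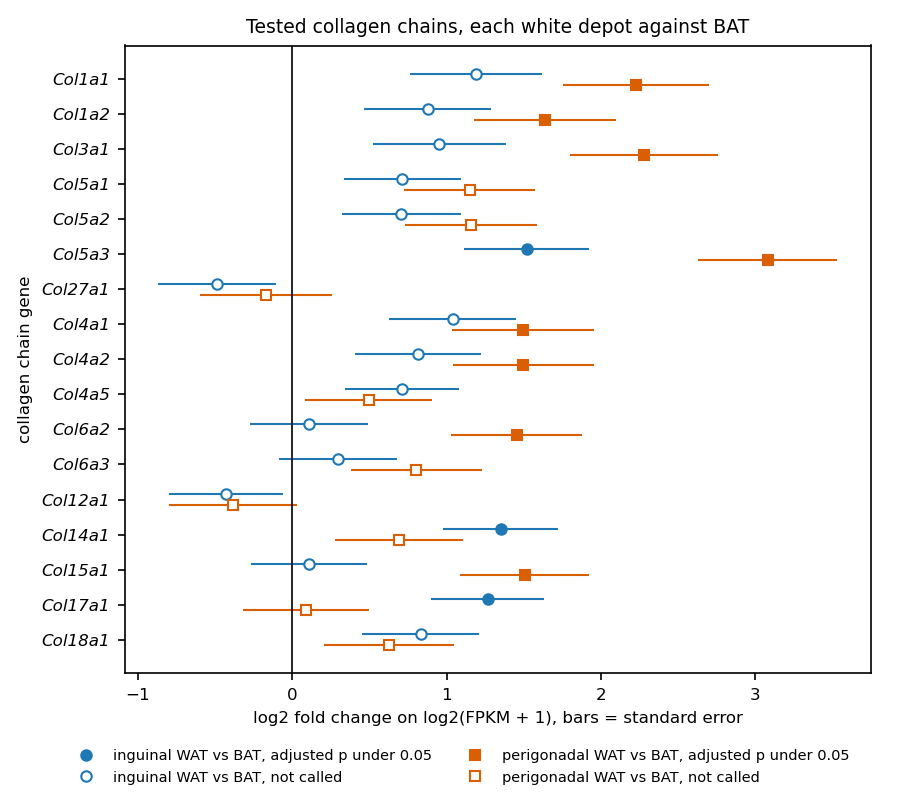
Log2 fold change (x axis, on log2(FPKM + 1), with standard errors) of the 17 tested chains (y axis) in inguinal WAT (circles) and perigonadal WAT (squares) against BAT; filled symbols were called. Col5a3 is filled in both, at 1.52 and 3.08, and Col12a1 and Col27a1 are the only chains left of 0 in both.

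The type IV chains Col4a1 and Col4a2, which together form the basement membrane network found in most tissues, had the highest mean levels of all collagen chains in BAT. Col4a1 stood at 16.6, 12.8 and 8.09 FPKM in inguinal WAT, 24.1 and 11.7 in perigonadal WAT, and 4.14, 5.71 and 6.39 in BAT. Col4a2 stood at 13.1, 11.2 and 6.05 FPKM in inguinal WAT, 21.3 and 12.1 in perigonadal WAT, and 4.67, 5.35 and 5.18 in BAT. Every white library lay above every BAT library for both chains. The inguinal differences from BAT were 1.04 ± 0.41 for Col4a1 and 0.81 ± 0.41 for Col4a2 (adjusted p = 0.292 and 0.586). In perigonadal WAT they were 1.5 ± 0.46 and 1.49 ± 0.46 (adjusted p = 0.0383 and 0.0366). After scaling by size factors the inguinal differences were 1.04 and 0.81 with adjusted p of 0.0209 and 0.0223, and the perigonadal ones 0.87 and 0.87 with adjusted p of 0.0565 and 0.0227, so on that scale the depots were nearly equal in their distance from BAT. Over the alternatives tried for the perigonadal calls, adjusted p ranged from 0.00740 to 0.907 for Col4a1 and from 0.00415 to 0.833 for Col4a2; without perigonadal replicate 1 the differences were 1.01 and 1.11, and neither was called.

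Col4a1 and Col4a2 lie head to head on chromosome 8 (11198423 to 11312826 on the minus strand and 11312829 to 11449287 on the plus strand in mm9), with 2 bases between them in the files, and are known to share a bidirectional promoter. Their ratio ran from 0.887 to 1.34 with a median of 1.14, and its 1.51-fold span was the smallest of the 7 chain pairs compared, while the levels themselves spanned from 4.14 to 24.1 FPKM. Over all 8 libraries these are the chains with the most fragments, so counting error in the ratio was also smallest. They had 836 and 712 in inguinal WAT, 923 and 884 in perigonadal WAT, where Col3a1 had 999, and 332 and 326 in BAT. By comparison the ratio of Col1a1 to Col1a2, on different chromosomes, spanned 2.32-fold. That of Col6a1 to Col6a2, neighbours on chromosome 10 with 85387 bases between them, spanned 3.26-fold, on far fewer fragments.

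**Figure D4:**
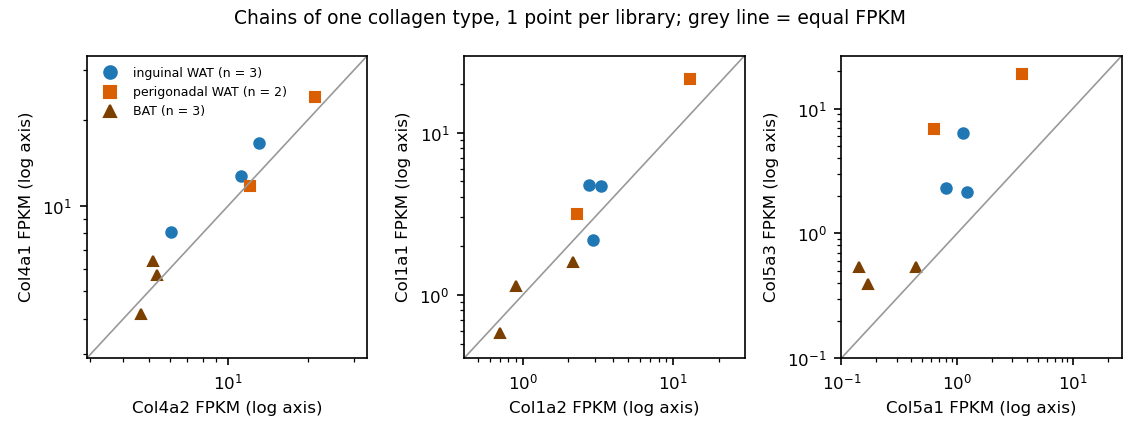
Levels of 2 chains of one collagen type against each other in FPKM on log axes, 1 point per library, for Col4a2 and Col4a1, Col1a2 and Col1a1, and Col5a1 and Col5a3; the grey line marks equal FPKM. The Col4 points follow the line closely (ratio 0.887 to 1.34), and all Col5a3 points lie above it (ratio to Col5a1 1.20 to 10.8).

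The other pairs of type IV chains also lie head to head. Col4a6 and Col4a5, with 1342 bases between them on chromosome X, form a network of epithelial and smooth muscle basement membranes. Col4a5 stood at 1.78, 0.856 and 0.587 FPKM in inguinal WAT, 1.02 and 0.489 in perigonadal WAT, and 0.377, 0.0686 and 0.266 in BAT. All white libraries lay above BAT, with differences of 0.71 ± 0.37 and 0.49 ± 0.41 that were not called (adjusted p = 0.625 and 0.446). Col4a6, which was not tested, had 13, 3 and 2 fragments in inguinal WAT, 3 and 1 in perigonadal WAT and 0 in BAT; the inguinal mean of 0.381 FPKM was at least 4.51-fold higher than BAT, taking 3 fragments over the group as the floor, and 2.00-fold without inguinal replicate 1. Col4a3 and Col4a4, chains of the kidney glomerular basement membrane, had 5 and 10 fragments over all 8 libraries, 8 of the 10 in perigonadal replicate 1.

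Collagen VI, whose beaded filaments link cells to the fibres, was low in inguinal WAT and BAT and high in 1 perigonadal library. Col6a1 stood at 0.657, 0.624 and 0.572 FPKM in inguinal WAT, 8.22 and 0.987 in perigonadal WAT, and 0.304, 0.274 and 0.449 in BAT. On this unscaled FPKM the depots were fully separated, but on 8, 7 and 7 fragments in inguinal WAT and 12 in perigonadal replicate 2. Inguinal WAT lay wholly below perigonadal WAT for 27.5 percent of all genes tested. Col6a1 reached 1 FPKM in 1 library and was therefore not tested. Col6a2 stood at 0.626, 0.836 and 0.321 FPKM in inguinal WAT, 5.71 and 1.41 in perigonadal WAT, and 0.557, 0.428 and 0.418 in BAT. Here inguinal WAT overlapped BAT, with a difference of 0.11 ± 0.38 (adjusted p = 0.995), and both perigonadal libraries lay above all others, at 1.45 ± 0.43 against BAT (adjusted p = 0.0276). That call held in 5 of 13 alternatives, with adjusted p from 0.00532 to 0.200, and Col6a2 could not be tested without either perigonadal library. Col6a3 stood at 0.655, 1.27 and 0.711 FPKM in inguinal WAT, 3.37 and 0.597 in perigonadal WAT, and 0.439, 0.413 and 0.706 in BAT, overlapped everywhere and was not called (0.30 and 0.80 against BAT, adjusted p = 0.988 and 0.253). Perigonadal replicate 1 exceeded replicate 2 by 6.04-fold for the class. The newer type VI chains Col6a4, Col6a5 and Col6a6 had 4, 1 and 0.9 fragments in inguinal WAT, 0, 9 and 5.6 in perigonadal WAT and 0 in BAT, where 0.9 and 5.6 are shares of fragments that Cufflinks divided between transcripts.

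Col14a1 and Col12a1, both fibril-associated collagens that sit on the surface of collagen I fibres, went in different directions. Col14a1 stood at 2.47, 1.47 and 1.81 FPKM in inguinal WAT, 1.44 and 0.369 in perigonadal WAT, and 0.0838, 0.243 and 0.0802 in BAT. The depots did not overlap, with inguinal WAT highest and BAT lowest at 5 fragments over 3 libraries. The inguinal difference from BAT was 1.35 ± 0.37 (adjusted p = 0.0278). The ratio of means was 14.1, and with 1 library left out it ran from 11.7 (BAT replicate 3) to 23.4 (BAT replicate 2). The perigonadal difference from BAT was 0.69 ± 0.41 (adjusted p = 0.306). Col12a1 stood at 1.30, 0.995 and 0.683 FPKM in inguinal WAT, 1.24 and 0.847 in perigonadal WAT, and 1.43, 1.59 and 1.98 in BAT. It was the only tested chain for which all BAT libraries lay above all inguinal and all perigonadal libraries, and its differences of -0.43 ± 0.37 and -0.39 ± 0.41 were not called (adjusted p = 0.947 and 0.551). Col16a1, of the same fibril-associated family, was not tested but fell in the order of Col14a1, at 0.837, 0.674 and 0.641 FPKM in inguinal WAT, 0.273 and 0.109 in perigonadal WAT, and 0, 0 and 0.0606 in BAT.

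Col15a1 and Col18a1, the multiplexin collagens that tie basement membranes to the matrix around them, differed in which depot was high. Col15a1 stood at 0.675, 0.290 and 0.333 FPKM in inguinal WAT, 4.73 and 1.44 in perigonadal WAT, and 0.653, 0.215 and 0.141 in BAT. Both perigonadal libraries lay above all 6 others, whose groups overlapped, and the difference from BAT was 1.5 ± 0.42 in perigonadal WAT (adjusted p = 0.0193) and 0.11 ± 0.38 in inguinal WAT (adjusted p = 0.995). The perigonadal call held in 6 of 13 alternatives (adjusted p 0.00367 to 0.157). Col15a1 reached 1 FPKM only in the perigonadal libraries and could not be tested without either of them. Col18a1, whose end fragment is known as endostatin, stood at 2.18, 1.62 and 0.445 FPKM in inguinal WAT, 1.61 and 0.513 in perigonadal WAT, and 0.534, 0.306 and 0.0655 in BAT. All its groups overlapped, and its differences of 0.83 and 0.63 were not called (adjusted p = 0.461 and 0.355).

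Col17a1 and Col7a1 are epithelial collagens: Col17a1 is a membrane-spanning chain of hemidesmosomes, which pin basal epithelial cells to their basement membrane, and Col7a1 forms the anchoring fibrils beneath it. Col17a1 stood at 2.15, 1.70 and 0.628 FPKM in inguinal WAT, 0 and 0.130 in perigonadal WAT and 0 in all 3 BAT libraries. The fragments numbered 67, 2 and 0, and the inguinal mean was at least 14.5-fold higher than BAT, taking 3 fragments over the BAT group as the floor. With 1 library left out this bound ran from 9.46 (BAT replicate 3) to 18.7 (inguinal replicate 3). The difference from BAT was 1.26 ± 0.37 (adjusted p = 0.0437), and from perigonadal WAT 1.18 ± 0.41 (adjusted p = 0.218). Col7a1, which was not tested, stood at 1.08, 0.420 and 0.255 FPKM in inguinal WAT (49 fragments), 0.0827 and 0 in perigonadal WAT (3 fragments) and 0.0432, 0 and 0.0384 in BAT (2 fragments). Epithelial markers followed the same depots: they summed to 46.4, 22.3 and 20.4 FPKM in inguinal WAT, with 9 of 9 seen, 2.05 and 2.34 in perigonadal WAT and 0 to 0.349 in BAT, where 8 of 9 (Krt5, Krt14, Krt8, Krt18, Krt7, Epcam, Cldn7 and Cdh1) were at 0. Of 8 epithelial markers tested, 7 were called higher in inguinal WAT than in BAT, and Krt5 and Krt14, keratins of basal cells, differed by 2.65 and 2.69 (adjusted p = 8.45e-07 and 1.92e-07). Krt5 stood at 10.3, 5.003 and 2.63 FPKM in the inguinal libraries, the order of Col17a1, and Krt14 at 8.02, 4.41 and 4.49, which is not. The FPKM totals of these libraries (146254, 140663 and 75925) also fell in the order of Col17a1. The part of epithelial cells in the levels of these chains was not tested.

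The 3 calls for inguinal WAT against BAT were lost when single libraries were left out. With any 1 BAT library left out, none of the 3 was called, at adjusted p of 0.143 to 0.164 for Col14a1, 0.155 to 0.178 for Col17a1 and 0.0746 to 0.115 for Col5a3. Without inguinal replicate 1 adjusted p was 0.162 for Col14a1 and 0.0502 for Col5a3, and without inguinal replicate 2 it was 0.333 for Col5a3. Col17a1 could not be tested without either of these inguinal libraries.

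The remaining minor chains were seen in traces. The cartilage collagen IX chains Col9a1, Col9a2 and Col9a3 had 5, 15 and 4 fragments in inguinal WAT, 0, 0 and 2 in perigonadal WAT and 0 in BAT, and Col9a2 was above 0 in all 3 inguinal libraries (0.891, 0.220 and 0.401 FPKM). Col10a1, a chain of hypertrophic cartilage, had 9, 6 and 6 fragments in the 3 depots and overlapped throughout. Col8a1 and Col8a2, of the collagen VIII lattice around vessels, had 3 and 5 fragments over all libraries. Col20a1 and Col23a1 had 8 and 7, and Col13a1, Col25a1 and Col28a1 had at most 1 each. The inguinal mean of Col9a2 was at least 2.49-fold higher than BAT and at least 2.10-fold higher than perigonadal WAT, taking 3 fragments over the group as the floor, and the first bound was 1.53 without inguinal replicate 1. The other chains of this kind were too thinly counted for a comparison.

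Markers of other cell types were read in the same libraries because a pull-down from whole depots can carry such RNA. Fibroblast markers summed to 27.3, 30.7 and 10.02 FPKM in inguinal WAT (12 of 12 seen), 147 and 28.9 in perigonadal WAT (12 of 12) and 6.06, 3.21 and 8.53 in BAT (8 of 12, with Lum, Mfap5, Fbln1 and Dpp4 at 0). Gsn alone made up 17.0, 24.0 and 7.41 FPKM of the inguinal sums and 93.3 and 16.2 of the perigonadal ones. Its part of the BAT sums was 4.25, 2.83 and 3.91 FPKM. Of 6 tested, 2 (Gsn and Fstl1) were called higher in inguinal WAT and 5 in perigonadal WAT than in BAT; without perigonadal replicate 1 the latter count was 1, and without inguinal replicate 1, inguinal replicate 2 or BAT replicate 2 the former was 0. Dcn, the fibril-bound proteoglycan decorin, stood at 3.38, 1.81 and 0.534 FPKM in inguinal WAT, 28.9 and 4.79 in perigonadal WAT, and 0, 0 and 1.81 in BAT. Perigonadal replicate 1, the library with the highest fibrillar collagen, was also the highest in fibroblast markers. The same library had the highest FPKM total (206549) and the highest adipocyte, endothelial, mesothelial, pericyte and macrophage sums. It was not the highest in the epithelial, Schwann or smooth muscle sums. Mesothelial markers summed to 18.2 and 2.74 FPKM in perigonadal WAT, 3.04 to 6.97 in inguinal WAT, mainly Krt19, which epithelia also express, and 0 to 0.154 in BAT; Msln stood at 2.85 FPKM in perigonadal replicate 1 and at 0 in all others. Smooth muscle markers ran the other way, at 138, 66.5 and 43.1 FPKM in inguinal WAT, 16.9 and 9.03 in perigonadal WAT and 7.46 to 8.53 in BAT. Most of the inguinal sum was Acta2 (90.0, 38.4 and 25.7 FPKM), and most of the BAT sum was Des (6.83, 7.77 and 7.39 FPKM). Des stood at 4.74, 6.75 and 2.98 FPKM in inguinal WAT and 8.42 and 5.60 in perigonadal WAT. Endothelial markers summed to 1.27 to 4.65, 16.7 and 8.95, and 2.76 to 4.58 FPKM in the same order of depots. Macrophage markers summed to 3.78 to 6.87, 15.0 and 6.45, and 3.97 to 7.28 FPKM. Schwann markers summed to 14.6 to 37.2, 38.2 and 36.7, and 27.4 to 39.9 FPKM, so inguinal WAT and BAT overlapped on both lists. Pericyte markers summed to 3.38 to 6.52, 15.0 and 5.59, and 2.63 to 3.76 FPKM. The part of these cells in the collagen levels was not tested, and in bulk RNA fewer cells of a type and less RNA per cell cannot be told apart.

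**Figure D5:**
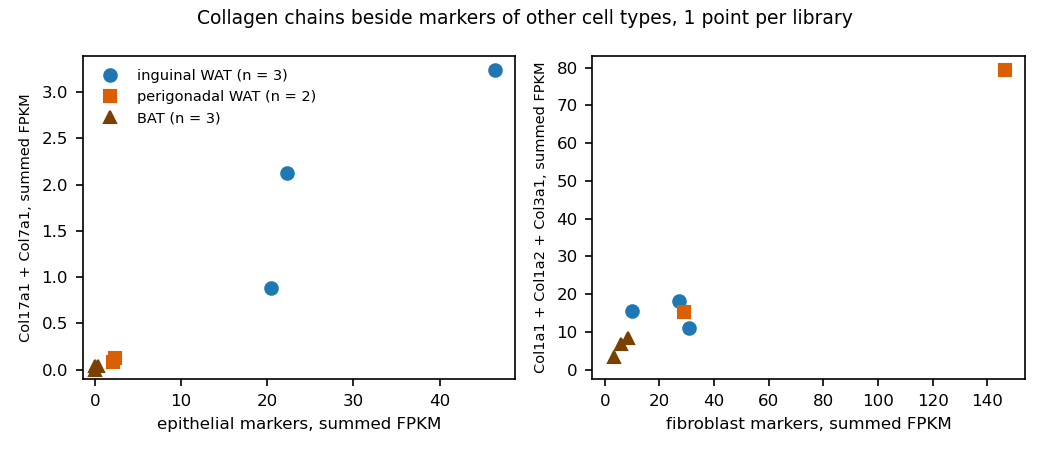
Left, summed FPKM of Col17a1 and Col7a1 (y axis) against the summed FPKM of 9 epithelial markers (x axis); right, Col1a1, Col1a2 and Col3a1 against 12 fibroblast markers; 1 point per library. The inguinal libraries lie apart at 20.4 to 46.4 FPKM of epithelial markers, and perigonadal replicate 1 lies apart at 147 FPKM of fibroblast markers.

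Genes that fold and secrete collagen were measured as a list of 20, of which 12 were tested. Sparc, a collagen-binding secreted protein, was the only one called, higher in perigonadal WAT than in BAT by 1.5 (adjusted p = 0.0230), at 81.8, 77.4 and 37.7 FPKM in inguinal WAT, 142 and 87.4 in perigonadal WAT and 38.3, 36.3 and 42.2 in BAT; it was not called without perigonadal replicate 1 or without any 1 BAT library. In inguinal WAT 0 of 12 were called by limma, and 1 had an unadjusted p under 0.05; without inguinal replicate 3, P4hb and Sparc were called. Serpinh1, the collagen chaperone HSP47, stood at 27.5, 22.2 and 14.0 FPKM in inguinal WAT, 37.5 and 31.4 in perigonadal WAT, and 17.7, 17.7 and 22.7 in BAT, with differences from BAT of 0.09 and 0.80 (adjusted p = 0.995 and 0.273). Of the processing and crosslinking enzymes 0 of 4 tested were called by limma in either comparison with BAT (0 and 1 at an unadjusted p under 0.05). The crosslinking enzyme transglutaminase 2 (Tgm2) differed from BAT by 0.07 and 1.05 (adjusted p = 0.995 and 0.166), and Pcolce, which promotes the trimming of procollagen, by -0.56 and -0.28 (adjusted p = 0.890 and 0.693).

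Among matrix breakdown genes 1 of 5 tested was called, the inhibitor Timp2, higher in perigonadal WAT than in BAT by 1.63 (adjusted p = 0.0115). Timp2 was not called without perigonadal replicate 1, BAT replicate 1 or BAT replicate 2, and the collagenase genes Mmp8 and Mmp13 were at 0 in all libraries. Of 4 tested collagen receptors, Gpr56, a receptor for collagen III, was called higher in inguinal WAT than in BAT (1.43, adjusted p = 0.0158), at 3.19, 1.70 and 1.30 FPKM against 0.159, 0.145 and 0; it was not called without inguinal replicate 1 or without any 1 BAT library. Itgb1, the integrin beta chain shared by all collagen-binding integrins, differed by 0.61 and 1.27 (adjusted p = 0.850 and 0.0900).

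Other basement membrane genes, the partners of Col4a1 and Col4a2, had 0 of 8 tested called in inguinal WAT against BAT by limma (2 at an unadjusted p under 0.05) and 4 higher in perigonadal WAT, with 0 called without perigonadal replicate 1, and only Nid1 and Lama4 without any 1 BAT library. The 4 were Nid1 (nidogen, which joins laminin to collagen IV; 2.18, adjusted p = 0.000397), Lama4 (1.73, 0.00872), Hspg2 (perlecan; 1.51, 0.0310) and Lamb2 (1.39, 0.0431). Nid1 stood at 1.57, 1.84 and 0.388 FPKM in inguinal WAT, 9.21 and 3.16 in perigonadal WAT and 0.522, 0.157 and 0.696 in BAT. Of the other fibrillar matrix genes 2 of 10 tested were called higher in inguinal WAT than in BAT, Postn (periostin; 2.04, adjusted p = 0.000183) and Thbs1 (thrombospondin 1; 1.82, adjusted p = 0.00143), the latter not without inguinal replicate 1. Perigonadal WAT had 5 of these 10 called higher than BAT, led in level by Dcn (3.22, adjusted p = 1.86e-06), Fn1 (fibronectin; 2.10, adjusted p = 0.0014) and Bgn (biglycan; 1.70, adjusted p = 0.0193), and of the 5 only Dcn was called without perigonadal replicate 1. Dcn and Mfap5 are in both this list and the fibroblast list.

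The genes whose levels ran most like the mean of Col1a1, Col1a2 and Col3a1 over the 8 libraries, by Pearson correlation of log2(FPKM + 1) among 8941 other tested genes, were Trim23 (r = 0.98), Nup214, Vps18, Nupr1 and Rbm5, and 13 genes reached 0.95. For the mean of Col4a1 and Col4a2 the nearest 4 were 4930402H24Rik (r = 0.99), Cyp4f17, Acsl4 and Ssrp1, and 181 genes reached 0.95. None of these named genes was on the lists of matrix genes or cell type markers. The points share the depth of each library, which moves many genes together, and the likeness is a description only.

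The count of chains called changed when single libraries were left out. For perigonadal WAT against BAT it was 4, 3 and 4 without BAT replicates 1, 2 and 3, in place of 8, with 17 chains tested each time. Without perigonadal replicate 1 or 2 the group held 1 library, and only 13 or 15 chains were tested. Col6a2 and Col15a1 were not among them. The median difference of the chains tested was 0.40 without perigonadal replicate 1 and 1.88 without perigonadal replicate 2, against 1.16 with both. Col4a1, Col4a2 and Col6a2 were lost whichever BAT library was left out, Col1a2 without BAT replicate 1 or 2, and Col15a1 without BAT replicate 2 or 3. For inguinal WAT against BAT the count, in place of 3, was 0 without inguinal replicate 1 and 1 without inguinal replicate 2, with 15 chains tested in each. It was 5 without inguinal replicate 3, with 17 tested. The fit gave its common estimate of spread 67.7 degrees of freedom beside 5 from the libraries, so a gene with replicates as far apart as Col1a1 in perigonadal WAT was judged mostly by the spread of other genes of its level.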

How the data were processed

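RNA from UCP1-TRAP pull-downs was measured by RNA sequencing in 8 mouse libraries, grouped by the tissue in the labels and numbered by the titles. Reads were processed by the authors with TopHat and Cufflinks on mouse build mm9, per the submitters' processing notes; their versions, their options and whether libraries were scaled are not given here. The authors deposited, per library, FPKM of each transcript with confidence bounds and coverage, held in the attribute text of an annotation file, and no read counts.

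FPKM was summed per gene. Fragments were recovered from FPKM and its upper bound for genes with 1 transcript; of these genes' low values, 83.1 to 92.5 percent in a library were whole within 0.05, and bounds from them cover counting error only. Genes with at least 1 FPKM in at least 2 libraries and a transcript of at least 300 nt (8958) were tested with limma 3.58.1 in R 4.3.3, with a trend of variance on level, on log2(FPKM + 1), two-sided, all 8 libraries in a model of 3 groups, with Benjamini-Hochberg adjustment per comparison. The test was run on simulated data in which all libraries of a gene had the same spread. That run cannot check the calls for libraries as far apart as those of perigonadal WAT. Tables used Python 3.11.15 with numpy 2.4.6 and pandas 2.3.3, and figures matplotlib 3.10.9. The fit was repeated with a pseudocount of 0.1 or 5, without the filter, after median-ratio scaling, on the 2 groups alone, with a block for replicate number, on each gene's most abundant transcript, and without each library in turn.

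Every tested chain, and fibrillar, type IV or type VI chains with a mean of at least 0.5 FPKM, is given with all its values; other chains are given by counts or ranges, except those singled out by value. Of each further list the 2 to 4 called members with the highest mean, or else the 2 members with the highest mean, are named. The endothelial, pericyte, Schwann and macrophage lists are given as sums only. Dcn, Des, Krt5, Krt14, Msln, Mmp8, Mmp13 and the minor chains given in full were chosen after their values were seen. The members and lists were chosen with earlier results of these data known. Promoter sequences are from RefSeq, GRCm38.p6, and their coordinates are not those of mm9.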

Additional observations from a re-analysis of the deposited data

How the results depend on the processing

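For inguinal WAT against BAT the 3 chains called became 1 with a pseudocount of 0.1, 0 with no filter, 5 with median-ratio scaling, 0 with the most abundant transcript and 0 to 5 with a library left out, and the 197 genes called became 131, 11, 413, 93 and 109 to 336. For perigonadal WAT against BAT the 8 chains became 3 with a pseudocount of 0.1, 1 with no filter, 2 with scaling, 4 with only the groups compared, 2 with the most abundant transcript and 1 to 9 with a library left out, and the 464 genes became 214 with a pseudocount of 0.1, 117 with no filter, 174 with the most abundant transcript and 105 to 1326 with a library left out. For inguinal against perigonadal WAT the 0 chains became 3 with a pseudocount of 5 and 0 to 4 with a library left out, and the 63 genes became 5 with a pseudocount of 0.1, 146 with a pseudocount of 5, 9 with no filter, 28 with scaling, 35 with only the groups compared, 12 with the most abundant transcript and 11 to 220 with a library left out. The cause was not tested. With a library left out, 13 to 17 chains passed the filter, so these counts do not share one set of chains. The ratio of basement membrane totals in perigonadal WAT to BAT was 1.97 with scaling in place of 3.33. Left-out libraries moved the ratio of the other chains in inguinal to perigonadal WAT between 0.840 and 2.45.

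With the replicate number as a block (replicate block), 3, 7 and 0 chains and 280, 418 and 88 genes were called in the 3 comparisons, and of the chains only Col4a2 in perigonadal WAT lost its call (adjusted p = 0.0538). Deviations of same-numbered libraries correlated at 0.126, 0.0804 and 0.1003 between inguinal WAT and BAT, where each inguinal library correlated best with its own number, at -0.0272 and -0.0871 between the white depots, and at -0.0136 and -0.0184 between perigonadal WAT and BAT, so the numbers were not taken to pair the samples.

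Over 732 values of single chains under the alternatives, 632 kept direction and side of the threshold, 68 lost a call, 15 gained one and 17 changed sign, all of these uncalled. Against BAT, left-out libraries moved Col6a2 and Col15a1 in inguinal WAT from -0.00078 to 0.24 and from -0.0076 to 0.27, and Col27a1 in perigonadal WAT from -0.48 to 0.13; Col17a1 in perigonadal WAT was -0.053 with the replicate block. For inguinal against perigonadal WAT, left-out libraries gave -2.25 to 0.17 for Col1a1, -1.80 to 0.28 for Col1a2, -0.95 to 0.031 for Col4a1, -1.19 to 0.32 for Col5a1, -1.23 to 0.33 for Col5a2, -0.18 to 0.10 for Col12a1 and -0.19 to 0.60 for Col18a1. Scaling gave 0.17 for Col4a1, 0.28 for Col12a1 and 0.024 for Col27a1, and the most abundant transcript gave -0.0038 for Col4a5. Depth limits the chains under 1 FPKM in BAT, where a library's value mostly rested on 10 fragments or fewer, and the spread in perigonadal WAT rests on 2 libraries.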
